A study of Mus musculus with 2 samples.

Results

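The apelin receptor ligand gene Apela, its receptor gene Aplnr, the growth factor gene Vegfa and the VEGF receptor genes Flt1 and Kdr were followed in single cells of mouse gastruloids. These are 5 of the 32285 genes in the count tables. They were picked by symbol, after earlier results of these data were known, so their levels and their ratios between the libraries are descriptions. Gastruloids are aggregates of embryonic stem cells that begin to form a body axis in culture. About 300 R1 mouse embryonic stem cells were aggregated in serum-free N2B27 medium, exposed for the last 12 h to CHIR at 3 µM, which blocks GSK3 and so turns on Wnt signalling, and collected at day 2.5. One group was wild type and the other was double mutant for the transcription factor genes Sp5 and Sp8, and both received CHIR. Aggregates were pooled before dissociation, and each genotype has 1 library of 10x 3' transcript counts, so no difference between them has a replicate check and no test was made. The labels do not say how many clones stand behind the double mutant line.

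Apela, also called Elabela or Toddler, encodes a small secreted peptide that signals through the apelin receptor, a G-protein-coupled receptor also bound by apelin. In the embryo Apela is known from pluripotent and early endodermal cells, and Aplnr from migrating mesendoderm and mesoderm. Vegfa is the growth factor that directs blood vessel formation, Kdr (VEGFR2) is its main signalling receptor and an early marker of mesoderm with blood and vessel potential, and Flt1 (VEGFR1) binds it tightly with weaker signalling and is also made in a soluble form.

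All genes lie on GRCm38 and are protein-coding in the GENCODE M21 annotation. Apela (ENSMUSG00000079042) spans chr8:65028417-65037336 on the minus strand and overlaps Gm45886 on the same strand. Aplnr (ENSMUSG00000044338) spans chr2:85136225-85139923 on the plus strand. Flt1 (ENSMUSG00000029648) spans chr5:147561604-147726011, Kdr (ENSMUSG00000062960) chr5:75932827-75978458 and Vegfa (ENSMUSG00000023951) chr17:46016993-46032369, all on the minus strand. Flt1 has 2 coding transcripts, and the shorter ends at 147635159. The counts are per gene and do not separate the soluble form from the membrane receptor.

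Sp factors are known to bind GC boxes, so the promoters of the genes that differed most between the libraries are shown, with the lower one for contrast. RefSeq promoter windows on GRCm38.p6 were matched for 4 of the 5 symbols, and the 250 bases before the start are printed 5' to 3' on the gene's strand, with capitals marking the letters GGGCGG on either strand. The windows lie at chr5:75978456-75978705 for Kdr, chr5:147726012-147726261 for Flt1 and chr8:65037337-65037586 for Apela, all on the minus strand.
Kdr: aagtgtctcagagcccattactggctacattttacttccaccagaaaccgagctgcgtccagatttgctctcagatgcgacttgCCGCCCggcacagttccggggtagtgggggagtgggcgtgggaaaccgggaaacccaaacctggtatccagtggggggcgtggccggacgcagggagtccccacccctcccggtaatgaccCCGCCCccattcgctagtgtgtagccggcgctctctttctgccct
Flt1: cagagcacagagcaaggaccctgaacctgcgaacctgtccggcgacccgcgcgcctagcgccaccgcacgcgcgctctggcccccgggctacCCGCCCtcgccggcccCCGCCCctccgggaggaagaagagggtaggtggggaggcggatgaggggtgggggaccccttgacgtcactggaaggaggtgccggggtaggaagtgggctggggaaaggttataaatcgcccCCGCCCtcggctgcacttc
The window of Apela is AT-richer, with a GC content of 48.0% against 61.6% in Kdr and 70.4% in Flt1.
Apela: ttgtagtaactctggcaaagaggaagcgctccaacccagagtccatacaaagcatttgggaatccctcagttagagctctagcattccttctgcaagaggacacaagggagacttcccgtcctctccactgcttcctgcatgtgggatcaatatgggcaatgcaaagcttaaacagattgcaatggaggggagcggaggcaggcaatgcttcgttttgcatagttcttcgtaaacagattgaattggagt
Kdr had 2 matches, beginning 166 and 45 bases before the start, and Flt1 had 3, at 158, 142 and 19 bases. Apela had none, and Vegfa had 2 in the window nearest its annotated start. Flt1 also held the letters TGACGTCA, present in 1.55% of windows, and TATAAA, present in 12.4%. Across all 32851 windows of that length, 32.7% held GGGCGG. A match is a run of letters and no measure of binding. The printed genes were picked by their ratios, and whether GC boxes bear on those ratios was not tested.

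The library labelled wild type (below, the WT-labelled library) and that labelled double knockout (the DKO-labelled library) kept 8707 and 10587 cells, with 97157331 and 97644169 UMIs, which are molecules counted once each. The median cell had 10571 and 8637 UMIs, and 27 barcodes passed in both libraries. Sp5 and Sp8 went against the labels in direction: Sp5 had 109.1 CPM (UMIs scaled to each library's total) in the WT-labelled library and 478.7 in the DKO-labelled library, and the log2 ratio of Sp8 was 0.95. Counts of 3' ends do not tell an edited allele from an intact one, so the genotypes are given as labels throughout. Of the markers of endothelium and its precursors, 7 of 17 reached a mean of 1 CPM and Emcn was at 0 in both libraries, and the embryonic globin genes Hba-x, Hbb-bh1 and Hbb-y were also at 0 in both. Summed over the endothelial list, the level was 59.0 and 60.4 CPM.

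Apela was detected widely and stood lower in the DKO-labelled library. Its 5085 UMIs in the WT-labelled library made 52.3 CPM (95% interval 50.9 to 53.8), and its 3887 UMIs in the DKO-labelled library made 39.8 CPM (38.6 to 41.1). The log2 ratio, always the DKO-labelled library over the WT-labelled library, was -0.39 (-0.46 to -0.33), and these intervals cover counting error only. With every cell thinned to 2500 UMIs, 10.3% and 8.12% of cells held an Apela UMI. Without thinning the shares were 30.6% and 22.1%, and single cells held up to 24 and 14 UMIs.

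The barcodes with 1 to 100 UMIs, which sample RNA outside cells, had Apela at 57.5 and 37.2 CPM, close to the levels in cells. How many of the cells with a single Apela UMI owe it to free RNA was not tested. The neural-like cells set the lowest shares among the large clusters, 4.35% and 3.42% after thinning, at median depths of 8793 and 7433 UMIs.

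Cells were grouped without the members among the clustering genes. Of 8 clusters, the largest was primitive-streak-like (cluster 0, led by Fgf8, Gsc, Mixl1 and Eomes), followed by an unnamed cluster led by Irx3 and Gbx2 (cluster 1) and an unnamed cluster led by Nfib and Cdx2 (cluster 2). Smaller ones were naive-pluripotent-like (cluster 4), neural-like (cluster 5) and extraembryonic-endoderm-like (cluster 7, with 22 cells in each library). Cluster 3 was unnamed and shallow, with median depths of 3672 and 3229 UMIs, and cluster 6 was unnamed with 37 and 77 cells. Cluster 0 held 36.9% of the cells of the WT-labelled library and 62.4% of the other, and cluster 1 held 36.4% and 24.2%.

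Among the 6 clusters of 100 cells or more per library, Apela was highest in the naive-pluripotent-like cells and in those led by Irx3. In the naive-like cells it stood at 97.7 CPM (87.1 to 109.1) in the WT-labelled library and 74.2 (64.8 to 84.5) in the other. In the cluster led by Irx3 it stood at 78.1 CPM (75.3 to 81.1) and 69.3 (66.0 to 72.8), and the intervals of these leading clusters overlapped only in the DKO-labelled library. Which of the leading clusters came first depended on the clustering. At a resolution of 1.0 a cluster led by Irx3 had 95.6 CPM (91.7 to 99.7) and 86.3 (81.3 to 91.5), above a cluster led by Dppa3 at 75.1 (67.7 to 83.1) and 54.7 (48.6 to 61.3). The streak-like cells had 33.8 and 28.8 CPM, and the neural-like cells were lowest, at 20.7 and 19.9 CPM. The 22 extraembryonic-endoderm-like cells of each library held 1 and 20 Apela UMIs.

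In the pair of largest clusters the Apela ratio was smaller than over all cells. It was -0.23 (-0.33 to -0.13) in the streak-like cells and -0.17 (-0.26 to -0.08) in the cells led by Irx3, against -0.37 (-0.71 to -0.06) in the cells led by Nfib and Cdx2 and -0.40 (-0.65 to -0.15) in the naive-like cells. With each cluster given the same weight in both libraries, the log2 ratio was -0.22 against -0.39 over all cells. The cluster shares given above differ between the libraries, and equal weights take away part of the ratio.

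**Figure D1:**
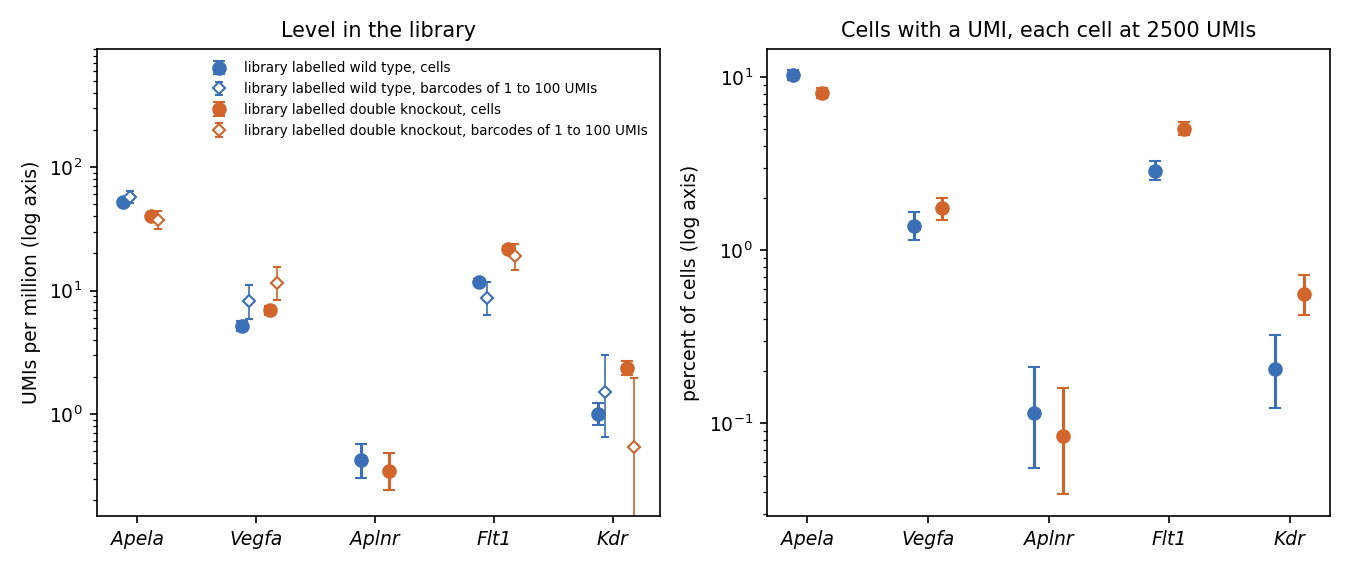
Left, CPM of each gene on a log axis in cells (filled circles) and in barcodes of 1 to 100 UMIs (open diamonds), for the WT-labelled (blue) and DKO-labelled (orange) libraries. Right, percent of cells with a UMI after thinning to 2500 UMIs, on a log axis. Bars are 95% counting intervals; Flt1 and Kdr are higher and Apela is lower in the DKO-labelled library, and Aplnr has no diamond because no such barcode held it.

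Vegfa was sparse, and its level in the naive-like cells was below those of the largest clusters, with intervals that partly overlapped. It had 502 UMIs, or 5.17 CPM (4.73 to 5.64), in the WT-labelled library and 674 UMIs, or 6.90 CPM (6.39 to 7.44), in the DKO-labelled library. The log2 ratio was 0.42 (0.25 to 0.59), and with cells weighted equally, as sums of thinned cells, it was 0.32 (-0.01 to 0.66). After thinning, 1.39% and 1.75% of cells held a UMI. The barcodes outside cells had 8.16 and 11.6 CPM, above the cells in both libraries, so a share this low is not read here as a set of Vegfa cells. In the WT-labelled library the naive-like cells had 2.19 CPM (0.88 to 4.51), below the streak-like cells at 5.60 (4.88 to 6.39) and the cells led by Nfib and Cdx2 at 6.83 (5.56 to 8.30). In the DKO-labelled library they had 3.59 CPM (1.79 to 6.43), below the cells led by Irx3 at 7.73 (6.64 to 8.94). The naive-like interval overlapped that of the cells led by Irx3 in the WT-labelled library, 4.26 CPM (3.61 to 5.00). In the DKO-labelled library it overlapped the streak-like cells at 6.92 (6.29 to 7.59) and the cells led by Nfib and Cdx2 at 6.13 (3.75 to 9.47). The shallow cluster 3 was lower still, at 1.55 and 2.36 CPM from 2 and 3 UMIs. Neighbouring clusters in the order overlapped throughout. The largest ratio between the libraries with an interval off 0 was in the cluster led by Irx3, from 4.26 to 7.73 CPM (log2 0.86, 0.54 to 1.18).

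Aplnr was counted in few cells. It had 41 UMIs in the WT-labelled library, or 0.42 CPM (0.30 to 0.57), and 34 in the DKO-labelled library, or 0.35 CPM (0.24 to 0.49). The log2 ratio was -0.27 with an interval from -0.98 to 0.41, so no difference was detectable at this depth. A UMI was seen in 36 and 34 cells in all, or in 0.115% and 0.085% of cells after thinning. No UMI of Aplnr was found in the barcodes outside cells, where 3 counts would be 0.57 and 0.81 CPM, limits above the level in cells. The naive-like cells had none either, where 3 counts would be 0.94 and 0.98 CPM.

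A large part of the few Aplnr molecules came from one small group of mainly streak-like cells. Among 30 finer groups, picked out after their values were seen, the group with the most Aplnr held 122 and 529 cells, and 620 of its 651 cells belonged to the streak-like cluster. Its leading genes were Mesp1, a factor of early cardiac and other mesoderm, Foxa2, a factor of endoderm and axial mesoderm, Lhx1, a factor of the anterior streak, and Mixl1. In the WT-labelled library it held 14 of the 41 Aplnr UMIs, or 34.1%, at 9.28 CPM (5.07 to 15.6) against 0.28 (0.19 to 0.41) in all other cells. In the DKO-labelled library it held 9 of 34, or 26.5%, at 1.70 CPM (0.78 to 3.22) against 0.27 (0.18 to 0.40). These UMIs came from 9 cells in each library, and without the cell that held 4 of them the level in the WT-labelled library was 6.67 CPM.

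Ligands differed in the same group. Apln, which encodes apelin, the other ligand of this receptor, stood at 21.2 CPM (14.5 to 29.9) in the group and 6.53 (6.03 to 7.07) outside it in the WT-labelled library, and at 22.3 (18.4 to 26.7) and 7.39 (6.84 to 7.96) in the DKO-labelled library. Apela went the other way, at 13.9 CPM (8.62 to 21.3) in the group against 52.9 (51.5 to 54.4) outside, and at 10.6 (7.98 to 13.7) against 41.5 (40.2 to 42.8). The group was the lowest of all 30 for Apela in both libraries. Flt1 and Vegfa had overlapping intervals inside and outside, and Kdr was at 1.99 against 0.98 CPM and at 4.15 against 2.24 CPM, with intervals apart only in the DKO-labelled library.

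**Figure D2:**
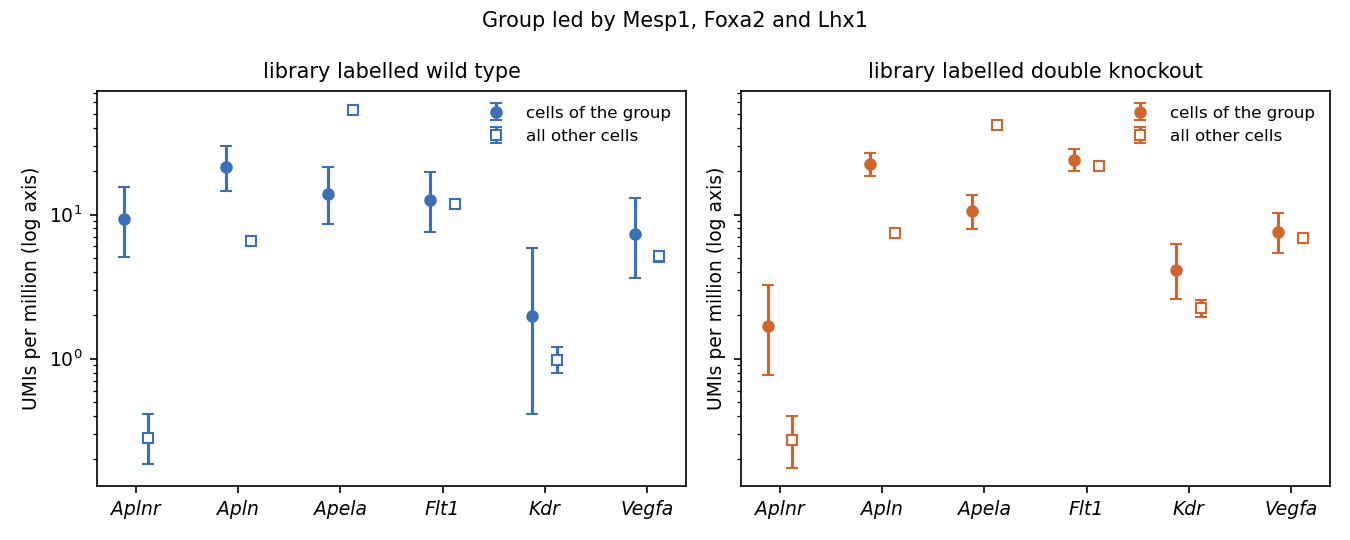
CPM, on a log axis, of 6 genes in the cells of the group led by Mesp1, Foxa2 and Lhx1 (filled circles) and in all other cells (open squares), with 95% counting intervals, 1 panel per library. Aplnr and Apln are higher and Apela lower inside the group in both panels. The group was picked for its Aplnr, and Apln was not kept out of the clustering genes.

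The DKO-labelled library held more cells of this group but far fewer Mesp1 molecules in it. Mesp1 had 101 UMIs in the group in the WT-labelled library and 7 in the DKO-labelled library. In the WT-labelled library, 11 cells with a thinned Mesp1 UMI held 6 of the 41 Aplnr UMIs, in 4 cells, at 40.8 CPM (15.0 to 88.7) against 0.36 in the remaining cells. In the DKO-labelled library 12 such cells held none, where 3 counts would be 30.4 CPM. Mesp1 leads the group picked for its Aplnr, and 77.1% of the Mesp1 UMIs of the WT-labelled library lay in that group. The Mesp1 cells may thus count the same Aplnr molecules again and are no separate support. Cells with a UMI of T, the brachyury factor of the streak, had 1.22 CPM (0.59 to 2.25) of Aplnr in the WT-labelled library. The remaining cells there had 0.35 (0.24 to 0.49). In the DKO-labelled library the levels were 0.73 (0.32 to 1.45) against 0.30 (0.20 to 0.44), with overlapping intervals.

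Flt1 was higher in the DKO-labelled library in most large clusters. Its 1146 UMIs made 11.8 CPM (11.1 to 12.5) in the WT-labelled library, and its 2131 UMIs made 21.8 CPM (20.9 to 22.8) in the DKO-labelled library. The log2 ratio was 0.89 (0.78 to 0.99), a 1.85-fold difference. Over all genes with a mean of at least 1 CPM, 0.927% had a log2 ratio of 0.5 or more and 1.51% had one of -0.5 or less; Flt1 and Kdr are 2 of these 115 higher genes. After thinning, 2.89% and 5.05% of cells held a Flt1 UMI. The barcodes outside cells gave 8.73 and 18.9 CPM, so the same order between the libraries is present in free RNA.

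By cluster, Flt1 stood at 14.8 and 23.7 CPM in the streak-like cells, at 7.77 and 17.6 in the cells led by Irx3, and at 14.4 and 27.9 in the cells led by Nfib and Cdx2. The log2 ratios there were 0.67 (0.54 to 0.82), 1.18 (0.96 to 1.41) and 0.96 (0.58 to 1.32). The naive-like cells had 16.6 and 15.4 CPM, with a ratio of -0.11 (-0.71 to 0.48). Whether the ratio differs between clusters was not tested, since each library is a single sample. The extraembryonic-endoderm-like cells, few as they were, had the highest levels, 39.2 CPM (18.8 to 72.2) and 136.1 (92.5 to 193.1), from 10 and 31 UMIs. The shallow cluster 3 was lowest, with 1 and 6 UMIs.

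Kdr had the largest ratio of the genes and few molecules. It had 97 UMIs, or 1.00 CPM (0.81 to 1.22), in the WT-labelled library and 229 UMIs, or 2.35 CPM (2.05 to 2.67), in the DKO-labelled library. The log2 ratio was 1.23 (0.88 to 1.59), a 2.34-fold difference. After thinning, 0.207% and 0.557% of cells held a UMI, and most cells with Kdr held 1. The barcodes outside cells had 8 and 2 UMIs of Kdr, or 1.52 (0.66 to 2.99) and 0.54 CPM (0.07 to 1.95), so in the WT-labelled library the cells were not above free RNA.

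Of the 6 large clusters, the neural-like cells, not the streak-like cells, had the highest Kdr level. It was 2.53 CPM (0.93 to 5.50) in the WT-labelled library, from 6 UMIs, which overlapped the other clusters, and 8.85 CPM (5.06 to 14.4) in the DKO-labelled library, from 16 UMIs. In the streak-like cells Kdr stood at 0.99 and 2.12 CPM (log2 1.08, 0.57 to 1.65), and in the cells led by Irx3 at 1.15 and 2.79 CPM (log2 1.27, 0.69 to 1.88). The finer group with the most Kdr, picked out for that value, was led by the neural factor Sox1. It had 93.4 and 67.8 CPM of Sox1 against 3.09 and 1.91 outside. There Kdr stood at 3.04 CPM (1.22 to 6.26), from 7 UMIs, against 0.95 (0.76 to 1.17) in the WT-labelled library. In the DKO-labelled library it stood at 9.19 CPM (5.25 to 14.9), from 16 UMIs, against 2.22 (1.93 to 2.54). A group picked for its Kdr lies above the rest by choice. Nrp2, a neuropilin co-receptor of VEGF and semaphorin signals, stood at 155.0 against 27.8 CPM and at 107.4 against 27.1 CPM. Neither Sox1 nor Nrp2 was kept out of the clustering genes. Cells with a thinned Sox1 UMI, 112 and 80 of them, had Kdr at 0 CPM (0 to 3.13) and 5.89 (1.61 to 15.1).

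**Figure D3:**
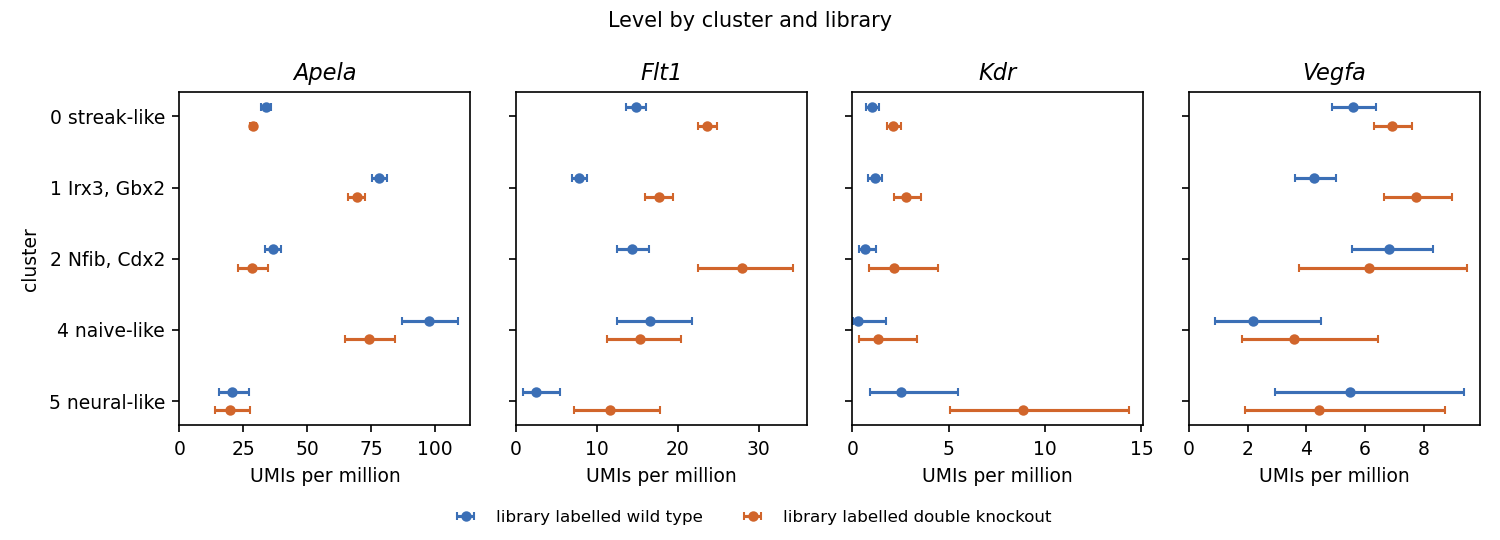
CPM of Apela, Flt1, Kdr and Vegfa (1 panel each, linear axes from 0) in 5 clusters, for the WT-labelled (blue) and DKO-labelled (orange) libraries, with 95% counting intervals. Apela is highest in the naive-like cluster and the cluster led by Irx3, whose order turns over at a resolution of 1.0, Kdr is highest in the neural-like cluster, and Vegfa is lowest in the naive-like cluster, with wide intervals.

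**Figure D4:**
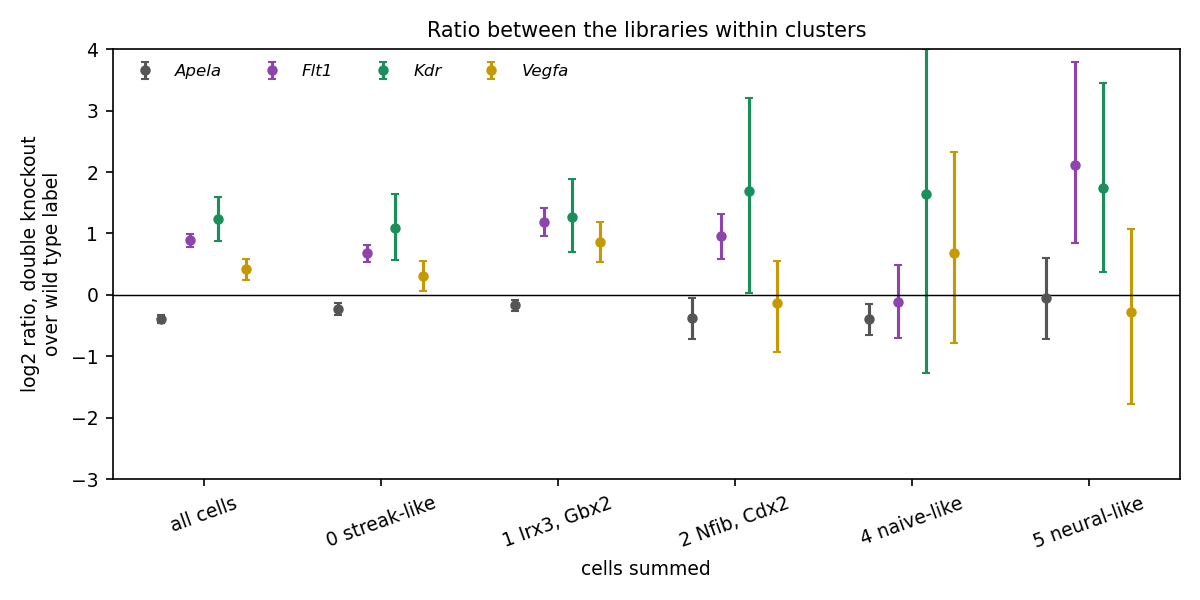
Log2 ratio of the DKO-labelled library over the WT-labelled library for 4 genes, over all cells and within 5 clusters, with 95% counting intervals, drawn to the edge of the axis where they run past it. Flt1 and Kdr lie above 0 over all cells and in clusters 0, 1, 2 and 5, and Apela below 0 throughout, with an interval across 0 in cluster 5.

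Ligand and receptor were seldom counted in the same cell at 2500 UMIs per cell, where only 10 and 9 cells held Aplnr. Of the Aplnr cells, 0 of 10 held Apela in the WT-labelled library, where 3 counts would be a share of 30%, and 1 of 9 did in the DKO-labelled library. Of 897 Apela cells in the WT-labelled library, 0 held Aplnr, where 3 counts would be 0.334%, against 10 of the 7810 cells without Apela. In the DKO-labelled library Aplnr was in 1 of 860 Apela cells and 8 of 9727 others. With all UMIs, Apela was in 8 of 36 Aplnr cells of the WT-labelled library, or 22.2% (10.1 to 39.2), against 30.6% of the rest. In the DKO-labelled library it was in 5 of 34, or 14.7% (4.95 to 31.1), against 22.1%. Intervals with and without Aplnr overlapped in both libraries. These counts cannot show whether receptor cells avoid the ligand.

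For the VEGF genes, Vegfa was in 4 of 252 Flt1 cells, or 1.59%, and in 1.38% of the remaining cells of the WT-labelled library. In the DKO-labelled library it was in 10 of 535, or 1.87%, and in 1.74% of the rest. Of the Kdr cells, 0 of 18 and 2 of 59 held Vegfa. Flt1 and Kdr shared 1 cell in each library. Apela was in 9.13% of Flt1 cells and 10.3% of the rest, and in 8.79% and 8.09%. Intervals with and without the partner overlapped for every pair named here.

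Apela cells carried less of the streak genes and more of the genes of the Irx3 and Sox2 kind. Cells with a thinned Apela UMI were summed and set against those without, in each library. No gene of 7605 was at least 2-fold higher or lower in both libraries, a share of 0.0%. Smaller differences ran the same way in both. All 8 primitive streak genes measured, the targeted gene Sp5 among them, were below 0 in both libraries, with medians of -0.57 and -0.56. The medians over all genes were 0.00. All 4 genes measured of the anterior streak list, Gsc, Otx2, Trh and Fgf5, were also below 0 in both, with medians of -0.56 and -0.57. That list has 13 genes, and those under a mean of 10 CPM, Foxa2 among them, were not measured here. Otx2 and Fgf5 are also on the list of primed epiblast genes, so these 4 are not particular to the anterior streak. All 5 neural genes measured were above 0, with medians of 0.48 and 0.45, and 4 of 5 were when cells were grouped by any UMI. The neural list has 12 genes, and those under a mean of 10 CPM, Sox1 among them, were not measured here. Among the large clusters, the neural-like cells had the lowest Apela level, 20.7 and 19.9 CPM.

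Mixl1, a homeobox factor of mesendoderm, stood at 6.10 CPM in Apela cells and 12.9 in the others in the WT-labelled library (log2 -1.06, -1.47 to -0.70), and at 11.0 and 17.4 CPM in the other (-0.65, -0.98 to -0.35). Gsc, a factor of the organizer, had log2 ratios of -0.80 (-1.20 to -0.44) and -0.84 (-1.13 to -0.57). T had -0.55 (-0.73 to -0.37) and -0.58 (-0.76 to -0.41). Of the 3 naive pluripotency genes measured, 2 were above 0 and 1 below in both libraries, with medians of 0.35 and 0.04. They were Klf2, a factor of that state, at 0.93 (0.79 to 1.06) and 0.91 (0.72 to 1.10), Zfp42, at 0.35 (0.14 to 0.56) and 0.04 (-0.22 to 0.28), and Nanog, which went the other way, at -0.24 (-0.33 to -0.15) and -0.19 (-0.29 to -0.09). The neural genes above 0 included Sox2, shared by pluripotent and neural cells, at 0.48 (0.33 to 0.62) and 0.72 (0.55 to 0.89), and Irx3 at 0.66 (0.48 to 0.84) and 0.72 (0.40 to 1.01).

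Grouping by the other gene, added after these values were seen, restates the same co-detection on the scale of Apela and is no separate support. Cells with a Klf2 UMI had 96.0 CPM of Apela (88.3 to 104.1) against 49.5 in the remaining cells of the WT-labelled library, and 70.2 (62.0 to 79.1) against 38.6 in the DKO-labelled library. Cells with an Irx3 UMI had 88.8 and 72.2 CPM, against 50.6 and 39.2. Cells with a T UMI had 29.6 and 27.2 CPM, against 54.4 and 41.4.

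Flt1 cells held somewhat more of the streak genes and, more clearly in the DKO-labelled library, of the basement membrane genes of the extraembryonic endoderm list. The same 8 primitive streak genes, Sp5 among them, were all above 0 in both libraries, with medians of 0.30 and 0.20. The same 4 genes of the anterior streak list, Gsc, Otx2, Trh and Fgf5, were too, with medians of 0.31 and 0.27. Grouped by any UMI, 6 of 8 primitive streak genes were above 0 in both, with medians of 0.28 and 0.28. Of the 4 extraembryonic endoderm genes measured, 3 were above 0 in both after thinning, with medians of 0.10 and 0.66, and all 4 by any UMI, with medians of 0.42 and 0.54. Among them, Sparc, a matrix glycoprotein gene, had 0.07 (-0.15 to 0.27) and 0.73 (0.59 to 0.86), and the collagen IV gene Col4a2 had 0.33 (-0.19 to 0.77) and 0.63 (0.29 to 0.95). Mixl1 had log2 ratios of 0.51 (0.05 to 0.91) and 0.70 (0.43 to 0.95), T 0.43 (0.17 to 0.66) and 0.40 (0.24 to 0.56), and Fgf5, an epiblast growth factor, 0.55 (0.36 to 0.73) and 0.35 (0.22 to 0.47). No gene of 7605 was 2-fold different in both libraries. Of the 22 extraembryonic-endoderm-like cells per library, 1 and 7 were among the thinned Flt1 cells, and their part in these ratios was not tested.

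**Figure D5:**
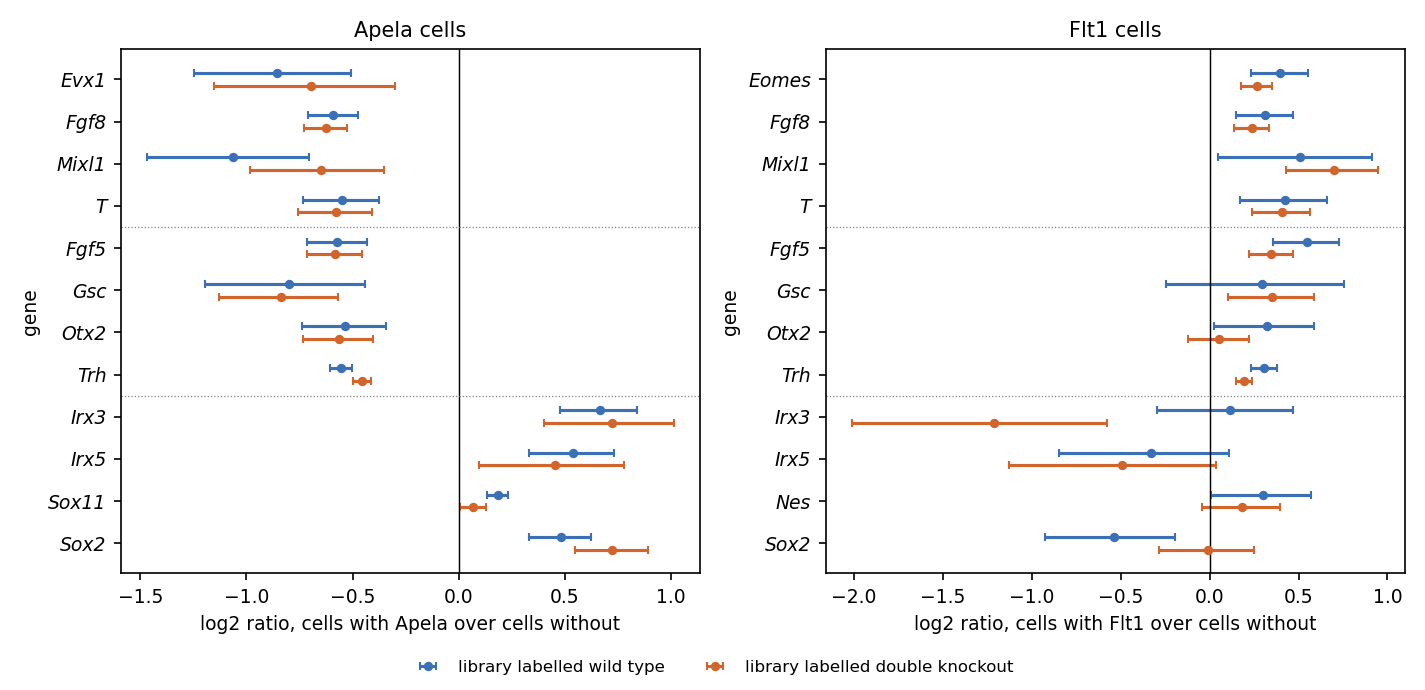
Log2 ratio of the summed level in cells with a thinned UMI of Apela (left) or Flt1 (right) over cells without, per gene, in the WT-labelled (blue) and DKO-labelled (orange) libraries, with 95% counting intervals. Dotted lines separate genes of the primitive streak, anterior streak and neural lists, at most 4 of each. Those of the anterior streak list are Gsc, Otx2, Trh and Fgf5. Genes of the streak lists lie below 0 in Apela cells and neural genes above. In Flt1 cells genes of the streak lists lie above 0 or across it.

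Low oxygen is known to induce Vegfa, and the ATF4 stress response is another known inducer. Between the libraries none of 22 hypoxia genes passed 0.5 in size, with a median of 0.07, and 7 of 13 ATF4 genes were higher by 0.5 or more, with a median of 0.50. Of all genes, 0.927% were as much higher and 1.51% as much lower, and their median was -0.03. Whether either response bears on the Vegfa ratio was not tested. Cells grouped by a Vegfa UMI had no gene of 7605 at least 2-fold different in both libraries (0.0%), and nothing is read from that grouping, since free RNA held more Vegfa than the cells.

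Kdr and Aplnr cells were too few for a thinned profile, with 18 and 59 cells of Kdr and 10 and 9 of Aplnr. The counts of genes at least 2-fold higher in both libraries were 155 of 7605 (2.04%) for Aplnr and 9 (0.118%) for Kdr, and of genes as much lower 73 (0.96%) and 23 (0.302%), and nothing is read from them. Grouped by any UMI, in 93 and 215 cells, Kdr cells had 2 genes at least 2-fold higher in both libraries and none lower. These were Nrp2, at 67.4 against 30.4 CPM and 69.9 against 27.5 (log2 1.16, 0.81 to 1.47, and 1.35, 1.11 to 1.58), and the cadherin gene Cdh11, at 1.18 (0.54 to 1.70) and 1.13 (0.72 to 1.5). Aplnr cells, 36 and 34 of them, had 4 higher, the clearest being Adamts9, a secreted protease gene, at 1.31 (0.09 to 2.16) and 1.72 (0.90 to 2.36), followed by Zfp141, Cdh11 and Bace1, whose intervals included 0 in the DKO-labelled library. Adamts9, Zfp141 and Bace1 were named after their values were seen. Grouping by any UMI favours deep cells, with medians of 11930 and 9925 UMIs for Kdr cells against 10554 and 8617 for the rest.

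Genes most like each member were ranked by the lower of the 2 libraries' Pearson correlations over the 30 finer groups, which share their library and differ in depth. For Apela these were Klf2 (r = 0.85), Dusp4 (0.76) and Sox2 (0.74). For Flt1 they were Tgfbr3 (0.80), Pdia4 (0.79) and Zic2 (0.79). Lower values were found for Vegfa, led by Cpsf2 (0.67) and Slk (0.66), and for Kdr, led by Fjx1 (0.61), Cdh11 (0.61) and Prag1 (0.57). For Aplnr the highest were Zfand6 (0.45), Twist1 (0.43) and Mrpl36 (0.41), in counts so sparse that 15 and 14 of the groups had no Aplnr.

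Of the 13 genes in the list of apelin and VEGF ligands and receptors, 11 had a mean of at least 1 CPM. Of these, 3 had a log2 ratio of 0.5 or more, Flt1, Kdr and Flt4, against 0.927% of all genes at that level. None had -0.5 or less, and the list median was 0.21. Flt1 and Kdr are members picked with earlier results of these data known, so the count is a description and no enrichment. Flt4 (VEGFR3), the receptor of Vegfc and Vegfd known from lymphatic vessels, had 1.74 and 2.60 CPM (log2 0.58, 0.29 to 0.87). All 3 VEGF receptor genes were thus higher in the DKO-labelled library. For Flt4, the barcodes outside cells had 2.47 CPM (1.31 to 4.22) and 1.62 (0.59 to 3.52), overlapping the intervals of the cells in both libraries.

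The ligands and co-receptors differed less. Apln had 6.76 and 8.19 CPM (log2 0.28, 0.13 to 0.43), and Vegfc had 2.12 and 1.65 (-0.36, -0.67 to -0.06). Vegfb, Vegfd and Pgf, a placental relative of Vegfa, had ratios of -0.01, -0.13 and 0.21 with intervals that included 0. Of the neuropilins, Nrp1 had -0.16 (-0.63 to 0.29) and Nrp2 had 30.8 and 28.5 CPM (-0.11, -0.19 to -0.04). Egfl7, the one gene of the endothelial list with a mean of at least 10 CPM, had a log2 ratio of 0.05 (-0.02 to 0.12), and none of the 7 endothelial genes measured passed 0.5 in size.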

How the data were processed

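The values are raw UMI counts for every gene in every barcode, as the authors deposited them, for 2 single-cell libraries. Per the labels' protocols they were made with 10x 3' chemistry and Cell Ranger 8.0.1; STARsolo, STAR 2.7.9a, Seurat 5.1.0 and mm10 come from the submitters' processing notes, with no role given. The labels state 9238 and 11190 cells with medians of 5333 and 5398 genes. The barcodes kept here, 8707 and 10587, are not the same set and had lower medians, 3275 and 2884 genes. What lies behind the gap in medians was not tested.

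Barcodes with at least 2500 UMIs, at least 1000 genes and at most 10% mitochondrial UMIs were kept. Doublets were not removed in the values given; an alternative removed the highest Scrublet-type scores at 0.8% per 1000 cells, 606 and 897 cells. Counts were summed and scaled to the library total as CPM. Sums carry exact Poisson, ratios exact conditional and shares Clopper-Pearson 95% intervals, all for counting error only. Ratios have a pseudocount of 0.5. With 1 library per genotype, no p-value was computed. Cells were clustered jointly (Leiden, leidenalg 0.10.2, Python 3.11.15) on 2000 variable genes, 30 components and 15 neighbours at a resolution of 0.5, and at 3 for the finer groups of at least 50 cells per library, without the 5 members, the 2 targeted genes, and Y-linked, ribosomal, mitochondrial and cell cycle genes. A cluster was named where at least 1 marker was among its 10 leading genes and at least 3 were 1.5-fold higher, a rule set after the clusters were seen. Cluster 6 met the rule for both nascent mesoderm and naive pluripotency, each with Tbx3 as the leading marker, and was left unnamed. TMM factors came from edgeR 4.0.16. The ratio and its interval were run on simulated Poisson sums, the model that the interval assumes. That run does not cover spread between cells or between libraries.

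The members, the 13 gene lists and the tests were chosen with earlier results of these data known. The text names the 5 members, the genes of their pathway list, at most 4 genes with the largest ratios at a mean of at least 10 CPM in each other list, the 3 genes most like each member, of which 1 is not reported here, and Sp5 and Sp8. Others identify clusters, mark lists at 0 or are said to have been named after their values were seen.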

Additional observations from a re-analysis of the deposited data

How the results depend on the processing

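No paired analysis was possible because each genotype has 1 library. The direction of the Apela, Flt1, Kdr and Vegfa ratios held under TMM scaling, a mitochondrial limit of 5%, a minimum of 5000 UMIs, removal of doublets or shared barcodes, equal cluster weights, and, added after seeing the data, equal cell weights and leaving out the shallow cluster. Of these values, that of Apela with equal cluster weights, -0.22, left the main interval. Shares of cells depend on depth. Thinned to 5000 UMIs they were, for the libraries labelled wild type and double knockout, 18.1% and 14.9% for Apela, 5.42% and 9.77% for Flt1, 0.446% and 1.17% for Kdr and 2.40% and 3.39% for Vegfa. With all UMIs they were 30.6% and 22.1%, 11.2% and 16.5%, 1.07% and 2.03%, 5.47% and 6.13%, and 0.413% and 0.321% for Aplnr. At 5000 UMIs, Vegfa was in 4.11% of Flt1 cells of the library labelled double knockout, and Apela in 16.7% and 15.6% of Flt1 cells. Apela was then in 2 of 15 and 3 of 16 Aplnr cells, or 13.3% and 18.75%, against 18.1% and 14.9% of the rest. At a resolution of 1.0 the highest cluster level of Apela in the library labelled double knockout was 86.3 CPM, in a cluster led by Irx3, which then came before the cluster led by Dppa3 in both libraries. Counts of genes 2-fold higher and lower with a member rest on few cells or molecules. In Aplnr cells they were 155 and 73 after thinning and 4 and 11 by any UMI, and in Kdr cells 9 and 23, and 2 and 0. With a minimum of 1 CPM they were 2 and 8 for Apela, 3 and 8 for Flt1, 30 and 48 for Vegfa, 367 and 66 for Kdr and 1924 higher for Aplnr. With doublets removed 1 gene was lower in Vegfa cells. At a minimum of 10 CPM 1 gene of the apelin and VEGF list was higher. Depth limits the values of Aplnr, and no alternative replaces a replicate library.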
